A study of Mus musculus with 9 samples.

Results

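The respiratory chain and ATP synthase of mouse subcutaneous fat were examined gene by gene, with the genes split by the genome that encodes them. The members were all protein-coding genes of the GENCODE M21 annotation whose symbols name a subunit of complexes I to V or a cytochrome c. The rule took 100 of the 35071 annotated genes, 13 on the mitochondrial chromosome and 87 on nuclear chromosomes. The mitochondrial set held 7 subunits of complex I, 1 of complex III, 3 of complex IV and 2 of complex V. The nuclear set held 35 genes of complex I, 4 of complex II, 9 of complex III, 20 of complex IV, 18 of complex V and Cycs, the somatic cytochrome c. Ndufa4 and Ndufa4l2 were counted with complex IV, where the Ndufa4 protein is found. Matching by symbol missed subunits with other names, such as Ndufab1, and took in Atp5s, a coupling factor that is not a structural subunit. Of the 100 genes, 97 had enough counts to be tested, namely all 13 mitochondrial and 84 nuclear ones. Cox7b2, Cox8c and a readthrough model of Atp5o did not.

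RNA was sequenced from whole subcutaneous fat of C57BL/6 mice that were 24 weeks old. The 9 libraries came from 3 mice homozygous for an endothelial knockout of AGO1 (Homo KO), 3 heterozygous for it (Hete KO) and 3 wild-type littermates (WT). AGO1 is an Argonaute protein that binds small RNAs, and the labels place its deletion in endothelial cells. No source used here gives the promoter that drives the deletion, the sex of the mice or their litters. Most chain genes are expressed in many cell types of the tissue, and not only in endothelial cells.

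Complexes I to IV pass electrons from NADH and succinate to oxygen and, except for complex II, pump protons across the inner mitochondrial membrane. Complex V, the ATP synthase, uses that gradient to make ATP. The mitochondrial genome encodes the most hydrophobic core subunits and is transcribed inside the organelle as long polycistronic RNAs, which are then cut into messengers. The other subunits, and all of complex II, are transcribed in the nucleus gene by gene and imported as proteins. White fat holds fewer mitochondria than muscle, liver or brown fat, and a few subunits of complex IV exist as paired isoforms, one widespread and one typical of heart and skeletal muscle.

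The libraries held 20843427 to 28252001 estimated counts. The 8 adipocyte markers, among them Adipoq and Plin1, made up 1.65 to 1.70% of counts in Homo KO, 1.25 to 1.60% in Hete KO and 1.58 to 2.004% in WT. Ago1 itself stood at 62.2, 58.6 and 25.8 CPM after TMM scaling (normalized CPM, the scale of all tests here) in Homo KO, 51.2, 59.7 and 60.1 in Hete KO and 69.9, 63.8 and 63.4 in WT. All 6 knockout libraries lay below all 3 WT libraries. Some libraries carried RNA of other tissues. A list of 16 skeletal muscle genes took 3.02% of counts in Hete KO 2, 1.17% in WT 1 and 1.10% in WT 2, against 0.004 to 0.141% in the other 6 libraries. A list of 10 hepatocyte genes took 0.108% in WT 2 and 0.095% in WT 3, against 0.005 to 0.021% elsewhere, and Ucp1, the brown fat uncoupling protein, reached 168 normalized CPM in WT 2 and 0.97 to 29.2 in the others. Homo KO 2 stood apart in its quantification: for transcripts of 2000 to 3000 bases, the median difference between length and effective length was 267 bases there and 184 to 199 bases in the other 8 libraries. Red blood cell genes took 0.008 to 0.0205% of counts in Homo KO, 0.0112 to 0.0149% in Hete KO and 0.0267 to 0.0318% in WT, so that both knockout groups lay below WT. Macrophage genes took 0.0383 to 0.0617% in Homo KO, 0.0264 to 0.0464% in Hete KO and 0.0527 to 0.0848% in WT, below WT without overlap in Hete KO only. The part of these cells in the values below was not tested. In bulk tissue, fewer cells of a type and less RNA per cell cannot be told apart. Both knockout groups are set against the same 3 WT libraries, and p-values measure only the spread between these samples.

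Per length of transcript, the 13 mitochondrial genes far outweighed the 87 nuclear ones. Their levels in TPM, which divides reads by transcript length and library size, summed to 33221 to 88711 per library, against 10108 to 13064 for the nuclear members. The median mitochondrial gene had a mean of 3710 TPM over the 9 libraries and the median nuclear member 78.1 TPM. mt-Co1, the catalytic subunit of cytochrome oxidase, led with a mean of 17634 TPM and took 22.7 to 36.3% of the mitochondrial sum. mt-Atp8, a small membrane subunit of ATP synthase, came next at 14181 TPM, a level computed for a transcript of 204 bases whose effective length was only 55.7 to 74.8 bases. Among nuclear members Atp5b, the catalytic beta subunit of ATP synthase, was far ahead with a mean of 2108 TPM and took 15.6 to 20.6% of the nuclear sum. Much of that level lay on short forms annotated as processed rather than protein coding. Atp5b-207, of 343 bases, had 376 to 1372.5 TPM and Atp5b-206, of 478 bases, 508 to 694 TPM. The coding form Atp5b-201 had 536 to 783 TPM. In estimated counts Atp5b-201 held 14309 to 25422, against 1101 to 3854 on Atp5b-207 and 2347 to 4139 on Atp5b-206. Atp5b was followed by Uqcrq at 455 TPM, Cox6c at 409 TPM, Ndufb9 at 285 TPM and Cox4i1 at 283 TPM.

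The mitochondrial sum was 67180, 73565 and 69192 TPM in Homo KO, 72096, 85895 and 88711 TPM in Hete KO and 64024, 33221 and 52259 TPM in WT. Every knockout library lay above every WT library, and WT 2 was far below the rest. The group means were 69979 ± 3265 TPM in Homo KO, 82234 ± 8892 TPM in Hete KO and 49835 ± 15544 TPM in WT (SD, n = 3 each). The log2 ratio of the means was 0.49 for Homo KO and 0.72 for Hete KO against WT. Taken as a share of counts, it was 0.44 and 0.56. Without WT 2 the TPM ratios were 0.27 and 0.50. Without both WT libraries with liver transcripts, which leaves WT 1 alone in its group, they were 0.13 and 0.36.

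The nuclear sum spanned a narrower range. It was 10108, 13064 and 11502 TPM in Homo KO (11558 ± 1479), 11825, 13035 and 11282 TPM in Hete KO (12047 ± 897) and 10673, 10376 and 10696 TPM in WT (10581 ± 178, SD, n = 3). The Homo KO range enclosed that of WT, and the Hete KO libraries all lay above it. The log2 ratio was 0.13 for Homo KO against WT, 0.03 without Homo KO 2, and 0.19 for Hete KO against WT, or 0.05 when taken as a share of counts. The mitochondrial sum divided by the nuclear sum was 6.65, 5.63 and 6.02 in Homo KO, 6.10, 6.59 and 7.86 in Hete KO and 6.00, 3.202 and 4.89 in WT. The Hete KO ratios lay above all WT ratios, by 0.54 on the log2 scale of the means, and 0.33 without WT 2. The Homo KO and WT ratios overlapped, with a log2 ratio of 0.38, and 0.16 without WT 2. Taken from shares of counts in place of TPM, the ratios were 7.76, 7.44 and 6.63 in Homo KO and 6.60, 3.99 and 5.68 in WT, which did not overlap by a narrow margin (log2 ratio 0.42). Liver transcripts were high in WT 2 and WT 3 and muscle transcripts in WT 1 and WT 2, so no WT library was free of both; their part in these ratios was not tested.

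**Figure D1:**
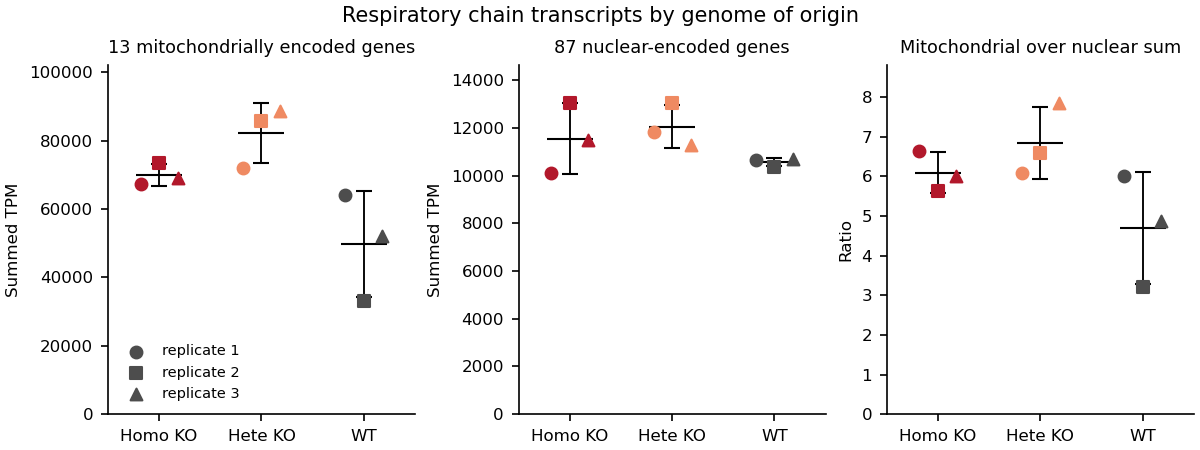
Summed TPM of the mitochondrially encoded and of the nuclear-encoded members, and the ratio of the sums, in each of the 9 libraries by group (points, with the group mean as a bar and SD as the error bar). The mitochondrial sums of the 6 knockout libraries sit between 67180 and 88711 TPM, above the 3 WT libraries, whereas the nuclear sums of Homo KO and WT overlap.

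No member passed edgeR's quasi-likelihood test at an adjusted p of 0.05 in any comparison. In Homo KO against WT the test called 0% of all 17968 genes tested, and in Hete KO against WT 0.417%, which was 27 genes higher and 48 lower, none a member. At an unadjusted p under 0.05, Homo KO against WT had 9 members higher, where 7.75% of all genes were, and 3 lower, where 8.68% were. Of those 9, 7 were mitochondrial, out of 13 tested, and 2 nuclear, out of 84. The same count in Hete KO against WT was 26 members higher, against 9.71% of all genes, and 4 lower, against 12.2%, with 11 mitochondrial genes among the 26. DESeq2 called 5 members higher and 0 lower in Homo KO against WT, against 1.07% higher and 1.42% lower of all 25436 genes given to it. It called 10 higher and 0 lower in Hete KO against WT, against 2.35 and 3.97% of the same genes. The 25436 include genes of low count that edgeR's filter left out. The 5 were mt-Nd4, mt-Nd5, mt-Cytb, mt-Atp8 and Ndufa5, and the 10 added mt-Nd3, mt-Nd6, mt-Co1, mt-Atp6 and Sdha.

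The members were also counted by direction. All 13 mitochondrial genes had a log2 fold change above 0 against WT in both knockout groups, with every normalization tried, where 49.3% of all genes did in Homo KO and 51.4% in Hete KO. These 13 genes are cut from shared precursors and set against the same WT libraries, so their signs are not separate observations. The mitochondrial median was 0.51 in Homo KO and 0.78 in Hete KO, beside -0.01 and 0.02 for all genes. Leaving out WT 2 brought the medians to 0.31 and 0.58, with 11 and 12 genes above 0, the exceptions being mt-Atp6 and mt-Co2 in Homo KO and mt-Co2 in Hete KO. Leaving out the libraries with liver transcripts, with WT 1 as the only WT library left, brought them to 0.33 and 0.47, with mt-Nd1, mt-Nd2, mt-Atp6 and mt-Co2 below 0 in Homo KO and mt-Co2 below 0 in Hete KO. Once the counts of nuclear copies, described below, were added, all 13 were above 0 in Hete KO in both of these fits. Of the 84 nuclear members, 46 were above 0 in Homo KO, with a median of 0.01, and 58 in Hete KO, with a median of 0.11. Without the 3 libraries with muscle transcripts the nuclear medians were -0.05 and -0.09 and the mitochondrial medians 0.30 and 0.54. Those values, and all others against WT given without the muscle libraries, are set against WT 3 alone, itself one of the libraries with liver transcripts.

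**Figure D2:**
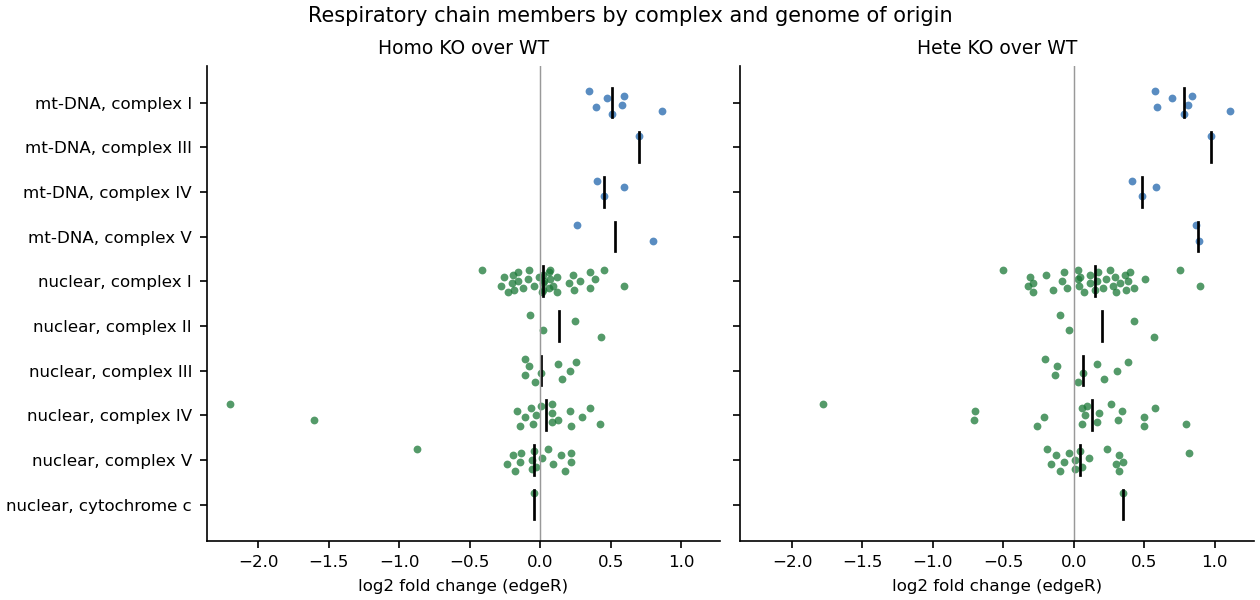
Log2 fold change of each tested member against WT, in Homo KO and in Hete KO, by complex and genome of origin (edgeR; points are genes, bars the median of each set). The 13 mitochondrial genes lie above 0 in both comparisons, and the nuclear members of each complex lie on both sides of it.

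The 7 mitochondrial subunits of complex I form the proton-pumping arm of the enzyme. mt-Nd4, one of its antiporter-like subunits, had 3149, 3799 and 3454 normalized CPM in Homo KO, 3406, 4468 and 4461 in Hete KO and 2602, 989 and 2120 in WT. Every knockout library was above every WT library, and WT 2 was the lowest by a wide margin. mt-Nd4 had a log2 fold change of 0.86 in Homo KO (SE 0.296, edgeR adjusted p = 0.225) and 1.11 in Hete KO (SE 0.297, edgeR adjusted p = 0.0889), the highest of any mitochondrial gene in each. DESeq2 gave adjusted p-values of 0.0306 and 0.00086.

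mt-Nd5, the terminal antiporter-like subunit, had 3813, 4770 and 4601 normalized CPM in Homo KO, 4148, 5412 and 5484 in Hete KO and 3239, 2173 and 3323 in WT. The groups did not overlap with WT here either, and WT 1 and WT 3 were close to each other. Its log2 fold change was 0.59 and 0.78, with edgeR adjusted p-values of 0.218 and 0.0765. mt-Nd6 is the only member encoded on the light strand and is transcribed from a separate precursor. It had 912, 1123 and 1240 normalized CPM in Homo KO, 1117, 1252 and 1673 in Hete KO and 848, 556 and 898 in WT, again without overlap, and log2 fold changes of 0.51 and 0.81. Its annotated end at position 13552 lies within mt-Nd5, which runs to position 13565 on the other strand, and whether the counting used strand is not given.

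mt-Nd1, which lies next to the quinone site, had 1974, 2108 and 1997 normalized CPM in Homo KO, 2331, 2656 and 2501 in Hete KO and 2107, 803 and 1722 in WT. mt-Nd2 had 1080, 1079 and 1029 in Homo KO, 1194, 1224 and 1364 in Hete KO and 1074, 493 and 947 in WT. In these 2 genes WT 1 was level with Homo KO, and only the Hete KO libraries were all above WT. Their log2 fold changes were 0.39 and 0.34 in Homo KO, and 0.69 and 0.59 in Hete KO. mt-Nd3, another small membrane subunit, had 306, 354 and 375 normalized CPM in Homo KO, 335, 553 and 442 in Hete KO and 312, 164 and 269 in WT, with log2 fold changes of 0.48 and 0.84. mt-Nd4l, a small membrane subunit, had 335, 517 and 362 in Homo KO, 344, 405 and 460 in Hete KO and 292, 195 and 326 in WT, with log2 fold changes of 0.58 and 0.57. WT 2 was the lowest library for all 7 genes.

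**Figure D3:**
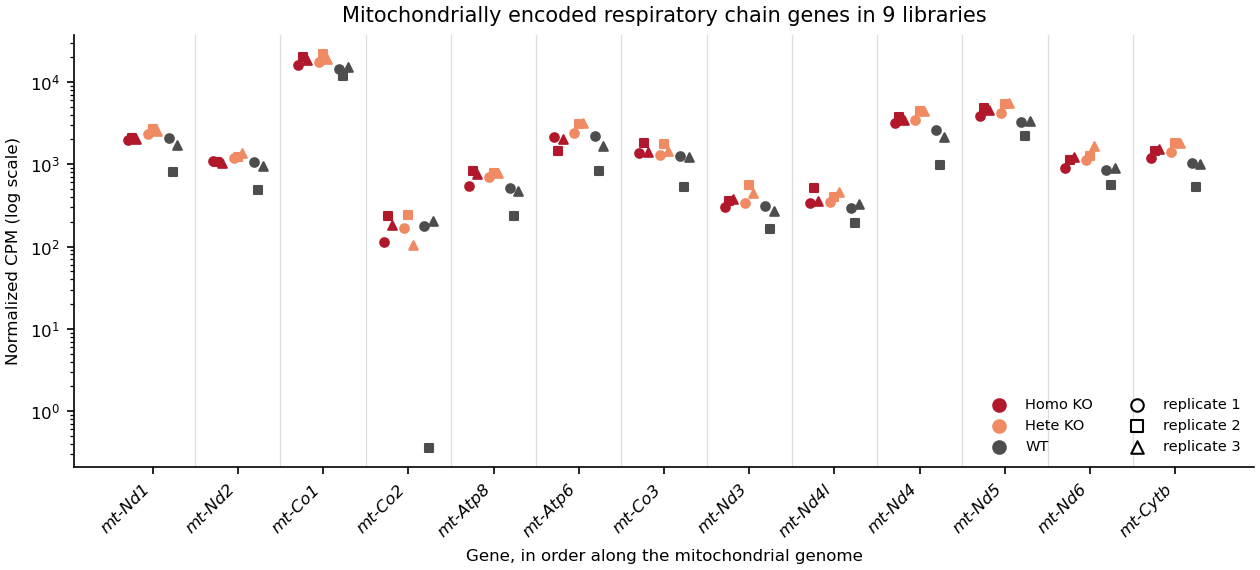
Normalized CPM of the mitochondrially encoded members in each library, by group (points, log axis; symbols mark the replicate; genes in their order along the mitochondrial genome, without the counts of nuclear copies). WT 2 is the lowest library throughout, and for mt-Nd4 and mt-Nd5 every knockout library is above every WT library.

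mt-Cytb, the haem b subunit and the sole mitochondrial gene of complex III, had 1197, 1444 and 1538 normalized CPM in Homo KO, 1421, 1798 and 1835 in Hete KO and 1035, 530 and 1005 in WT. All knockout libraries exceeded all WT libraries. Its log2 fold change was 0.70 in Homo KO (SE 0.240, edgeR adjusted p = 0.225) and 0.98 in Hete KO (SE 0.241, edgeR adjusted p = 0.0765), with DESeq2 adjusted p-values of 0.0443 and 0.000607. mt-Co1 had 16100, 20018 and 18567 normalized CPM in Homo KO, 17371, 21586 and 19131 in Hete KO and 14502, 11884 and 15077 in WT. The groups did not overlap with WT, but the log2 fold changes, 0.40 and 0.49, were among the smallest of the mitochondrial genes. mt-Atp8 had 540, 828 and 764 in Homo KO, 695, 781 and 791 in Hete KO and 519, 236 and 466 in WT. The highest WT library, WT 1, came close to Homo KO 1, and the log2 fold changes were 0.80 (edgeR adjusted p = 0.222) and 0.89 (edgeR adjusted p = 0.108).

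The other 3 mitochondrial genes, mt-Co2, mt-Atp6 and mt-Co3, have a copy in the nuclear genome that matches them letter for letter over nearly their whole length. mt-Co2, at chrM:7013-7696, carries the copper centre that takes electrons from cytochrome c. mt-Atp6, at chrM:7927-8607, forms the proton channel of ATP synthase, and mt-Co3, at chrM:8607-9390, is the third core subunit of cytochrome oxidase. Their copies lie together on the minus strand of chromosome 1, as Gm28661 (chr1:24614885-24615565, 681 bases), Gm10925 (chr1:24613974-24614651, 678 bases) and Gm28437 (chr1:24613189-24613971, 783 bases), with 0 mismatches. The ends of the GENCODE M21 transcripts are shown because only the bases in capitals, which the copy lacks, tell each pair apart.
mt-Co2: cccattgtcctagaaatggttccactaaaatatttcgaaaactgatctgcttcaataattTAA
Gm28661: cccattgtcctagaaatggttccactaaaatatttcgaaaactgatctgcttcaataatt
mt-Atp6: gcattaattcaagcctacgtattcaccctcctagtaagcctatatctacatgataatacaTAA
Gm10925: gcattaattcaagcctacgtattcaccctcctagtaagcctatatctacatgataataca
mt-Co3: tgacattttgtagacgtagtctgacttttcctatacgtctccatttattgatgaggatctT
Gm28437: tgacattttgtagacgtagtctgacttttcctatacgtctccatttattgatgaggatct

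The deposited counts were divided between gene and copy in a different ratio in each library. mt-Co2 itself held 0.07% of the pair's counts in WT 2 and up to 25.5% in other libraries, mt-Atp6 42.5 to 85.8% and mt-Co3 59.0 to 96.7%. Taken alone, mt-Co2 was at 0.36 normalized CPM in WT 2 and 104 to 242 in the other 8 libraries. With the copy's counts added, mt-Co2 had 866, 1017 and 1137 normalized CPM in Homo KO, 1020, 1348 and 1201 in Hete KO and 854, 517 and 809 in WT. The overlap with WT that mt-Co2 alone showed was gone, and the SE of its log2 fold change was 0.201 with the copy, against 1.15 without it. Its log2 fold change with the copy was 0.47 in Homo KO (edgeR adjusted p = 0.284) and 0.71 in Hete KO (edgeR adjusted p = 0.0963).

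mt-Atp6 with its copy had 2520, 3442 and 3323 normalized CPM in Homo KO, 2765, 4015 and 4356 in Hete KO and 2615, 1219 and 2484 in WT, with log2 fold changes of 0.56 and 0.82. Homo KO 1 lay just below WT 1, and all Hete KO libraries were above WT. mt-Co3 with its copy had 1615, 2036 and 2108 in Homo KO, 1928, 3004 and 2107 in Hete KO and 1587, 801 and 1283 in WT, without overlap, and log2 fold changes of 0.65 (edgeR adjusted p = 0.258) and 0.94 (edgeR adjusted p = 0.0925). With these copies the median over the 13 genes was 0.56 in Homo KO and 0.81 in Hete KO. The same stretch of chromosome 1 holds copies of mt-Nd3, mt-Nd4 and mt-Nd4l, which were listed at 0 in every library. It also holds Gm29216, a copy of part of mt-Co1 (483 bases, 99.8% identity). Gm29216 had 0 to 10.4 estimated counts per library, which were added to mt-Co1 in the same way.

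**Figure D4:**
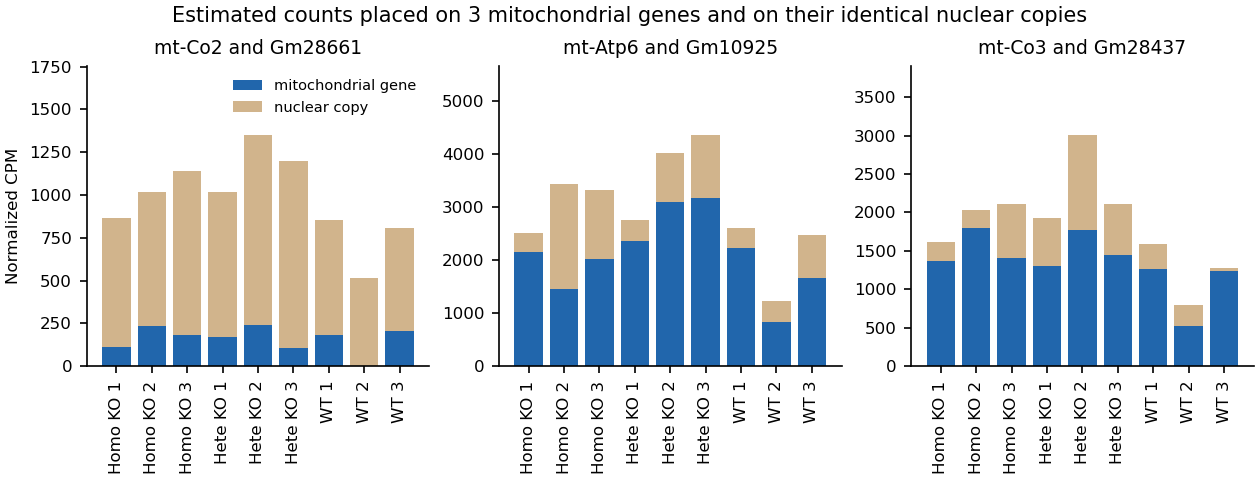
Normalized CPM placed on mt-Co2, mt-Atp6 and mt-Co3 themselves (lower part of each bar) and on their chromosome 1 copies (upper part), by library. The part on mt-Co2 itself runs from 0.07% of the bar in WT 2 to 25.5%, and the split differs between libraries for all 3 genes.

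In the nuclear part of complex I, Ndufa5, an accessory subunit of the peripheral arm, had the smallest p of all members against WT in both groups. It had 21.6, 21.2 and 25.2 normalized CPM in Homo KO, 22.8, 24.4 and 28.8 in Hete KO and 16.4, 13.1 and 15.5 in WT. The libraries of both knockout groups were all above WT. This gave a log2 fold change of 0.59 in Homo KO (SE 0.145, edgeR adjusted p = 0.164, DESeq2 adjusted p = 0.0283) and 0.75 in Hete KO (SE 0.145, edgeR adjusted p = 0.0591, DESeq2 adjusted p = 0.000881). Without WT 2 the value in Homo KO was 0.51. The transcript with the highest TPM in every library was Ndufa5-204, which is annotated as processed rather than protein coding and had 45.2, 76.7 and 54.9 TPM in Homo KO, 60.3, 55.9 and 62.7 TPM in Hete KO and 38.7, 20.5 and 26.4 TPM in WT. The coding form Ndufa5-201 had 28.2, 7.26 and 24.9 TPM in Homo KO, 23.4, 24.7 and 35.2 TPM in Hete KO and 19.6, 15.9 and 18.8 TPM in WT. It was above WT in every knockout library except Homo KO 2.

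The 35 nuclear genes of complex I had a median log2 fold change of 0.02 in Homo KO and 0.15 in Hete KO. In Hete KO against WT, 8 of the 35 did not overlap with WT on the higher side, where 12.6% of all genes did, and 2 on the lower side, where 12.1% did. Over all members these counts were 30 and 4 in Hete KO, of which 12 of the 30 were mitochondrial. In Homo KO they were 11 higher, 8 of them mitochondrial, and 2 lower, against 10.8 and 11.2% of all genes. Ndufb2, an accessory subunit of the membrane arm, was on the lower side in Hete KO, with 33.3, 36.0 and 31.7 normalized CPM in Homo KO, 30.9, 35.6 and 27.8 in Hete KO and 38.5, 44.1 and 35.8 in WT, and a log2 fold change of -0.33 in Hete KO (edgeR adjusted p = 0.177). Its highest Hete KO library, at 35.6, was only just under the lowest WT library, at 35.8. Ndufb7, of the same arm, had 11.5, 11.1 and 13.6 in Homo KO, 11.5, 8.64 and 8.99 in Hete KO and 10.8, 17.2 and 13.4 in WT, and Ndufa2, of the peripheral arm, had 41.5, 51.8 and 50.8 in Homo KO, 48.5, 47.5 and 47.1 in Hete KO and 50.4, 58.1 and 66.2 in WT. Both had values below 0 in Hete KO, -0.50 for Ndufb7 and -0.29 for Ndufa2, and only Ndufa2 did not overlap with WT. Ndufs5, an accessory subunit on the intermembrane side, shares its reads with the pseudogene BC002163 and held only 3.46 to 64.6% of the pair's counts. With that copy it had 30.0, 29.1 and 30.2 normalized CPM in Homo KO, 31.6, 30.1 and 27.2 in Hete KO and 19.7, 21.0 and 28.7 in WT, and a log2 fold change of 0.36 in each group (SE 0.149).

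Transcript forms within complex I differed in Homo KO 2. Ndufs4-203, a retained-intron form of a subunit whose loss in mice causes a Leigh-like disease, was at 151 TPM there and 0 to 13.4 TPM in the other 8 libraries. Its coding form Ndufs4-201 was at 5.75 TPM in Homo KO 2 and 34.6 to 59.1 TPM in the others. Over all nuclear members, transcripts of types other than protein coding held 37.5% of the summed TPM in Homo KO 2 and 28.1 to 30.5% elsewhere. The nuclear sum restricted to protein-coding transcripts had a log2 ratio of 0.05 in Homo KO against WT.

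Complex II, succinate dehydrogenase, is wholly nuclear. Sdha, its flavin-bearing catalytic subunit, had 197, 243 and 262 normalized CPM in Homo KO, 248, 295 and 230 in Hete KO and 179, 160 and 182 in WT. Neither knockout group overlapped with WT. Sdha had a log2 fold change of 0.43 in Homo KO (edgeR adjusted p = 0.218, DESeq2 adjusted p = 0.0801) and 0.57 in Hete KO (edgeR adjusted p = 0.0765, DESeq2 adjusted p = 0.00441). Sdhb, the iron-sulphur subunit, had 40.6, 49.5 and 53.5 normalized CPM in Homo KO, 49.6, 65.8 and 46.9 in Hete KO and 34.5, 38.9 and 47.5 in WT, and log2 fold changes of 0.25 and 0.43. WT 3 lay within both knockout ranges, and without the libraries with muscle transcripts the values were 0.02 and 0.03.

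The membrane anchors lay closer to WT than Sdha did in counts. Sdhc had 50.5, 63.0 and 67.3 normalized CPM in Homo KO, 61.0, 67.7 and 57.3 in Hete KO and 51.5, 71.3 and 67.3 in WT. Sdhd had 35.4, 48.1 and 51.6 in Homo KO, 41.3, 43.6 and 39.3 in Hete KO and 40.4, 45.4 and 47.3 in WT. All groups overlapped for both anchors. The log2 fold change of Sdhd was 0.02 in Homo KO and -0.10 in Hete KO. That of Sdhc in Homo KO was -0.07 from counts and 0.39 with an offset for transcript length. The transcript Sdhc-201 was at 72.7 TPM in Homo KO 2 and 10.8 to 20.2 TPM in the other libraries. In TPM the 4 genes summed to 375, 512 and 413 in Homo KO, 437, 431 and 423 in Hete KO and 349, 286 and 310 in WT, which did not overlap with WT.

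In complex III the nuclear medians were 0.00 in Homo KO and 0.07 in Hete KO. Uqcrc2, a core subunit that faces the matrix, had 79.2, 107 and 100 normalized CPM in Homo KO, 95.8, 129 and 98.98 in Hete KO and 83.1, 83.9 and 81.5 in WT. The 3 WT libraries were almost level, and all Hete KO libraries were above them, with a log2 fold change of 0.38 (SE 0.145, edgeR adjusted p = 0.167). Homo KO 1 was below WT, and the value in Homo KO was 0.21. Uqcrb, a small matrix-side subunit, had 47.7, 60.03 and 61.5 in Homo KO, 56.1, 70.8 and 64.8 in Hete KO and 53.2, 49.98 and 51.6 in WT, with 0.13 and 0.31. Uqcrq and Uqcrh, small subunits of the complex, overlapped in all comparisons, with log2 fold changes of -0.11 and 0.00 in Homo KO and -0.13 and -0.12 in Hete KO. Cyc1, the haem c subunit, also overlapped throughout, with 48.4, 65.8 and 74.2 in Homo KO, 59.4, 71.4 and 41.9 in Hete KO and 56.3, 75.4 and 67.3 in WT.

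Cycs, the mobile carrier between complexes III and IV, had 72.7, 62.0 and 87.2 normalized CPM in Homo KO, 95.3, 104 and 91.0 in Hete KO and 83.8, 53.6 and 91.0 in WT. WT 3 reached the lowest Hete KO library, and Homo KO lay within WT. Near-identical copies of Cycs, chiefly Gm10053, which is annotated as protein coding, and to a smaller part 2 processed pseudogenes, shared its reads, and its own share ran from 60.7 to 88.0% of the total. The log2 fold change in Homo KO was -0.04, and 0.04 with those copies added.

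Complex IV held the members with the most negative values, Cox6a2 in both groups and Cox7a1 next to it in Homo KO, which are muscle-type isoforms. Cox6a2, the heart and skeletal muscle form of subunit 6a, had 1.86, 0.998 and 0.25 normalized CPM in Homo KO, 0.67, 3.16 and 0.29 in Hete KO and 4.76, 6.05 and 3.46 in WT. All knockout libraries were below all WT libraries, including WT 3, in which the muscle list took only 0.006% of counts. Its log2 fold change was -2.20 in Homo KO (SE 0.831, edgeR adjusted p = 0.250) and -1.78 in Hete KO (SE 0.811, edgeR adjusted p = 0.236), on fewer than 10 normalized CPM in every library. Without the 3 libraries with muscle transcripts the values were -1.74 and -2.80.

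Cox7a1, the muscle and brown fat form of subunit 7a, had 1.31, 0.95 and 1.31 normalized CPM in Homo KO, 1.71, 6.70 and 1.07 in Hete KO and 3.55, 5.25 and 2.17 in WT. Homo KO was below WT throughout, while Hete KO 2, the library with the most muscle RNA, had the highest level of all. The Hete KO value was -0.21 on the log2 scale, and the Homo KO value -1.61 (SE 0.635, edgeR adjusted p = 0.260), and -0.86 without the libraries with muscle transcripts. As a share of the TPM of Cox7a1 and Cox7a2 together, Cox7a1 was 11.01, 7.09 and 10.3% in Homo KO, 12.1, 28.7 and 7.12% in Hete KO and 26.8, 40.1 and 15.6% in WT. The share of Cox6a2 in its pair with Cox6a1 was 9.93, 5.86 and 1.13% in Homo KO, 3.33, 15.2 and 1.41% in Hete KO and 28.7, 27.4 and 13.3% in WT. Within each group the Cox6a2 share was highest in the library with the most muscle RNA, which was Homo KO 1, Hete KO 2 and WT 1. The same held for Cox7a1 except in WT, where WT 2, the library with the most Ucp1, was highest. The part of muscle or brown fat RNA in these shares was not tested.

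Cox8b, the third of the muscle-type forms, did not follow them. It had 5.62, 11.3 and 11.1 normalized CPM in Homo KO, 7.64, 23.7 and 5.93 in Hete KO and 5.80, 14.2 and 6.45 in WT. Its high libraries were Hete KO 2 and WT 2, and the groups overlapped. Its share of the TPM with Cox8a was 17.2, 24.3 and 23.5% in Homo KO, 18.2, 44.6 and 18.9% in Hete KO and 21.3, 40.4 and 16.996% in WT.

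**Figure D5:**
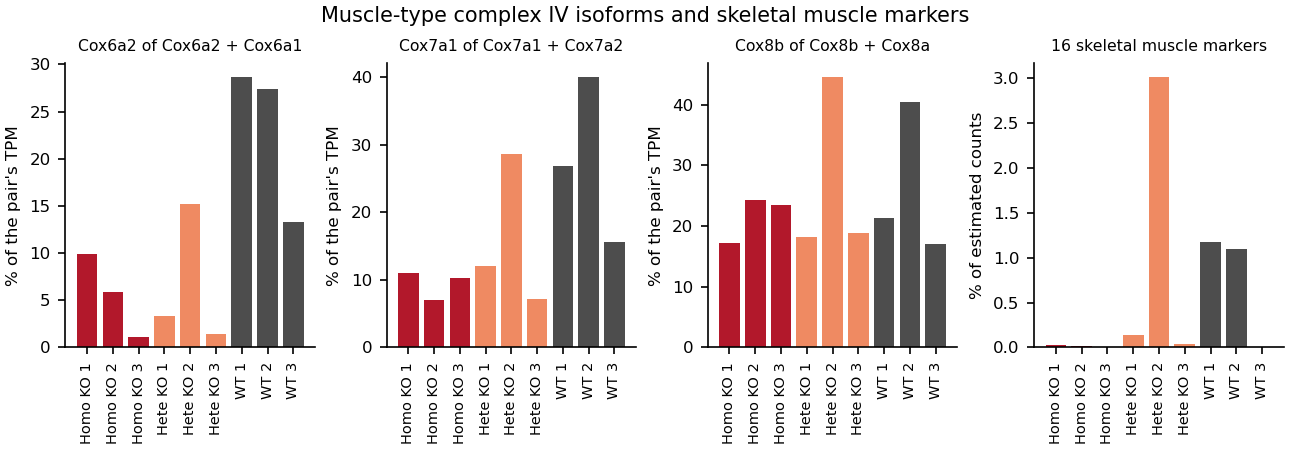
Share of the muscle-type isoform in the summed TPM of its pair with the widespread isoform, for 3 pairs of complex IV, and the share of all estimated counts on 16 skeletal muscle markers (right), by library; bar colours mark the groups. The Cox6a2 and Cox7a1 shares are lowest in knockout libraries, with Hete KO 2 as a high point, and the Cox8b share is highest in Hete KO 2, at 44.6%, and WT 2, at 40.4%.

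Among the widespread forms, Cox7a2 had 17.9, 20.8 and 20.3 normalized CPM in Homo KO, 22.1, 28.8 and 20.8 in Hete KO and 15.5, 16.2 and 19.2 in WT. The Hete KO libraries were all above WT, with a log2 fold change of 0.49 (edgeR adjusted p = 0.121), and 0.17 without the libraries with muscle transcripts. Cox8a, the widespread form of subunit 8, had 53.5, 63.1 and 70.5 in Homo KO, 66.5, 59.0 and 50.5 in Hete KO and 42.3, 41.8 and 62.7 in WT, and overlapped because of WT 3. Cox4i1, the main form of subunit 4, was nearly level at 89.5, 103 and 108 in Homo KO, 95.9, 108 and 95.6 in Hete KO and 83.1, 96.3 and 104 in WT. Ndufa4l2, a hypoxia-induced relative of Ndufa4, had 3.85, 3.37 and 3.61 normalized CPM in Homo KO, 2.82, 2.02 and 2.63 in Hete KO and 3.88, 4.65 and 3.60 in WT. Hete KO was below WT without overlap, with a log2 fold change of -0.70 (SE 0.233, edgeR adjusted p = 0.130), and Homo KO overlapped with WT at -0.16. Cox4i2, the hypoxia-responsive form of subunit 4, had 2.40, 1.81 and 1.60 in Homo KO, 1.56, 1.18 and 0.97 in Hete KO and 2.17, 2.57 and 1.35 in WT.

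In complex V, Atp5b had 839, 1152 and 1269 normalized CPM in Homo KO, 1195, 1241 and 1010 in Hete KO and 928, 872 and 1004 in WT. Homo KO 1 was below all WT libraries, and the Hete KO libraries were above them by a narrow margin. Atp5b had a log2 fold change of 0.22 in Homo KO and 0.30 in Hete KO (edgeR adjusted p = 0.527 and 0.327). The c subunit of the rotor ring is encoded by 3 genes that give the same mature protein. Atp5g3 was the most expressed of them, with 40.2, 52.6 and 63.5 normalized CPM in Homo KO, 52.2, 55.1 and 41.3 in Hete KO and 49.3, 50.2 and 62.9 in WT, and the groups overlapped. Atp5g1 had 12.3, 6.89 and 7.93 in Homo KO, 8.90, 13.95 and 9.38 in Hete KO and 10.2, 11.4 and 8.41 in WT.

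Atp5g2 had 2.49, 1.09 and 2.26 normalized CPM in Homo KO, 3.08, 3.84 and 4.33 in Hete KO and 3.63, 4.97 and 2.17 in WT. Homo KO was below Hete KO, and WT 3 lay within Homo KO. Most of its reads could also come from the pseudogenes Gm10175 and Gm10231, since its own share was 9.43 to 38.2%. The log2 fold change in Homo KO against WT was -0.88, and -0.50 with these copies added. Atp5s had 4.08, 4.99 and 2.92 in Homo KO, 6.53, 7.21 and 4.38 in Hete KO and 4.18, 3.29 and 2.85 in WT, with a log2 fold change of 0.81 in Hete KO (SE 0.284, edgeR adjusted p = 0.143). Hete KO 3 was only just above WT 1. Atp5d and Atp5h, subunits of the central and peripheral stalks, overlapped throughout, with log2 fold changes of -0.18 and -0.03 in Homo KO and -0.19 and -0.10 in Hete KO. Over the 17 tested nuclear genes of complex V the values ran from -0.88 to 0.22 in Homo KO and from -0.19 to 0.81 in Hete KO. The corresponding ranges were -0.41 to 0.59 and -0.50 to 0.90 for the 35 genes of complex I, -0.11 to 0.25 and -0.20 to 0.38 for the 9 of complex III, and -2.20 to 0.43 and -1.78 to 0.80 for the 18 of complex IV. With copies added, the low end of complex V was -0.50 in Homo KO and -0.30 in Hete KO, and the high end of complex I in Hete KO was 0.75.

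Between Homo KO and Hete KO, edgeR called 0 members and 0% of all genes, and DESeq2 called 0 members, against 0% of all genes higher and 0.00786% lower. At an unadjusted p under 0.05, 1 member was higher in Homo KO, Ndufa4l2, where 2.25% of all genes were, and 4 were lower, where 3.2% were. The 4 were Atp5l, Atp5g2, Ndufc1 and Ndufa12. The mitochondrial median was -0.25 and the nuclear median -0.10, beside 0.00 for all genes, and 3 of 13 mitochondrial and 26 of 84 nuclear members were above 0, where 50.6% of all genes were. Without Hete KO 2 the nuclear median was 0.01. In 2 members all Homo KO libraries were above Hete KO, Ndufa4l2 and Cox4i2, against 5.73% of all genes, and in 7 all were below, against 5.64%. The 7 were mt-Nd1, mt-Nd2, mt-Atp6, Atp5g2, Ndufc1, Ndufa12 and Cycs. With copies added, mt-Atp6, Atp5g2 and Cycs overlapped between the 2 groups, and the log2 fold change of mt-Atp6 was -0.26, against -0.61 alone. Ndufc1, a small membrane-arm subunit of complex I, had 21.9, 23.9 and 29.4 normalized CPM in Homo KO and 29.9, 38.3 and 33.7 in Hete KO, without overlap (log2 fold change -0.44, edgeR adjusted p = 0.899). Atp5l, subunit g in the membrane part of ATP synthase, had 83.3, 71.4 and 70.6 in Homo KO and 79.0, 99.5 and 112 in Hete KO, and shares reads with Gm10221. Its log2 fold change was -0.37 alone and -0.07 with its copies.

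Other genes of mitochondrial biology were counted in 6 lists, and edgeR called 0 of their genes in any comparison. DESeq2 called Ppargc1a and Prkaa1 higher in Homo KO against WT. In Hete KO against WT it called 8 higher, namely Nrip1, Ppargc1a, Prkaa1, Lyrm7, Uqcc1, Mrps35, Mrpl47 and Opa1, and Sco2 lower, and between Homo KO and Hete KO it called 0. Of all 25436 genes given to DESeq2, 1.07% were called higher and 1.42% lower in Homo KO against WT. These shares were 2.35 and 3.97% in Hete KO against WT. At an unadjusted p under 0.05, 1 of the 231 genes was higher and 8, or 3.46%, were lower in Homo KO than in Hete KO, where 3.2% of all genes were lower. Against WT, the shares of all genes at that level, 7.75% higher and 8.68% lower in Homo KO and 9.71% higher and 12.2% lower in Hete KO, are the background of the counts that follow, and over the 6 lists together 6.06 and 3.03% of the genes were higher and lower in Homo KO and 10.8 and 3.03% in Hete KO. Of 21 regulators of mitochondrial biogenesis, 4 in Homo KO and 5 in Hete KO were higher than WT at an unadjusted p under 0.05, and 1 in each was lower. Among them Ppargc1a, the coactivator of mitochondrial biogenesis, had 17.7, 22.3 and 26.9 normalized CPM in Homo KO, 19.3, 35.6 and 20.8 in Hete KO and 14.4, 11.1 and 10.1 in WT, without overlap. Gabpa, a factor that binds promoters of chain genes, had 76.4, 80.6 and 72.0 in Homo KO, 70.0, 70.6 and 69.5 in Hete KO and 64.2, 47.98 and 58.3 in WT. Prkaa1, a catalytic subunit of AMP-activated kinase, had 95.7, 121 and 124 in Homo KO, 110, 119 and 129 in Hete KO and 86.4, 55.6 and 81.7 in WT. These 3 were above WT in every knockout library. Of the 21, 4 in Homo KO were above WT without overlap and 3 below, against 10.8 and 11.2% of all genes. In Hete KO 5 were above and 1 below, against 12.6 and 12.1% of all genes.

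The 37 genes of mitochondrial DNA transcription and RNA processing had a median log2 fold change of 0.11 in Homo KO and 0.21 in Hete KO. At an unadjusted p under 0.05, 4 were higher in each, and 1 and 0 lower. Of the 37, 6 in Homo KO and 8 in Hete KO were above WT without overlap, against 10.8 and 12.6% of all genes. In each group 0 were below, against 11.2 and 12.1% of all genes. Hsd17b10, a subunit of the mitochondrial RNase P that cuts tRNAs out of the precursor, had 19.0, 23.8 and 24.9 normalized CPM in Homo KO, 18.8, 26.5 and 25.6 in Hete KO and 15.6, 12.9 and 18.6 in WT. Its groups did not overlap, though the margin over WT 3 was narrow. Of 52 assembly factors, 2 in Homo KO and 6 in Hete KO were higher, and 0 and 1 lower, with medians of 0.09 and 0.10. The higher ones were 3.85 and 11.5% of the list, below and near the shares of all genes. Uqcc1, which assembles complex III, had 69.0, 76.5 and 78.4 in Homo KO, 79.5, 84.4 and 69.5 in Hete KO and 59.8, 57.6 and 61.5 in WT, without overlap. Of the 52, 4 in Homo KO were above WT without overlap and 2 below, against 10.8 and 11.2% of all genes. In Hete KO 8 were above and 2 below, against 12.6 and 12.1% of all genes.

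The 78 proteins of the mitochondrial ribosome, which translates the mitochondrial messengers, had medians of -0.01 in Homo KO and 0.03 in Hete KO. At an unadjusted p under 0.05, 4 and 9 were higher, or 5.13 and 11.5%, near the shares of all genes, and 2 and 2 lower. Mrps35, of the small subunit, had 20.5, 21.7 and 22.8 normalized CPM in Homo KO, 22.6, 25.5 and 21.9 in Hete KO and 16.1, 16.4 and 15.4 in WT. Mrpl47, of the large subunit, had 5.66, 6.84 and 6.78 in Homo KO, 7.27, 8.47 and 7.24 in Hete KO and 3.88, 4.93 and 3.99 in WT. The knockout libraries were above WT for both genes. Of the 78, 8 in Homo KO were above WT without overlap and 6 below, against 10.8 and 11.2% of all genes. In Hete KO 14 were above and 5 below, against 12.6 and 12.1% of all genes. Of 14 genes of coenzyme Q synthesis, 0 were higher and 2 lower in each group. Below WT without overlap were 3 of the 14 in Homo KO and 2 in Hete KO, and above it 0 in each, against the same shares of all genes. Coq9, a lipid-binding protein of that pathway, had 68.4, 88.0 and 91.6 in Homo KO, 92.6, 103 and 75.3 in Hete KO and 103, 169 and 113 in WT. WT 2, with liver and brown fat transcripts, was its highest library. Of 29 carriers and markers of mitochondrial mass, 0 in Homo KO and 1 in Hete KO were higher and 1 in each lower, with medians of 0.01 and 0.08. Above WT without overlap were 2 of the 29 in each group, and below it 2 in Homo KO and 1 in Hete KO, against the same shares of all genes.

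The promoters of the nuclear members were searched for motifs, which the choice by symbol did not use. RefSeq sequence of build GRCm38.p6 was available for 69 of the 86 nuclear symbols, over a window from 250 bases before the start to 50 bases after it. Both strands were searched for exact matches. The NRF1 motif GCGCANGCG was found in 21 of the 69, or 30.4%, against 7.03% of 27025 genes with a promoter. Those 27025 were not limited to genes expressed in this tissue. Matches were found in 8 of 31 promoters of complex I, 2 of 3 of complex II, 2 of 5 of complex III, 1 of 14 of complex IV, 7 of 15 of complex V and in that of Cycs. The YY1 motif AANATGGCG was in 14.5% against 2.76%, and 7 of its 10 promoters belonged to complex I. The ERRA motif AAGGTCA was in 11.6% against 5.38%, the GABPA motif ACTTCCGG in 7.2% against 4.31%, and CCAAT in 44.9% against 41.06%. The MEF2 motif of muscle genes was in 0 of the 69, against 3.7% of all. The muscle-type isoform Cox6a2 was not among the 69, so its promoter was not searched.

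Promoter stretches of 120 bases that end before the start are shown for Sdha, whose libraries did not overlap with WT, and for widespread and muscle-type genes of complex IV, to set the 2 kinds side by side. Capitals mark exact NRF1 matches on either strand. The stretches lie at chr13:74350281-74350400 on the minus strand (Sdha), chr5:115348982-115349101 on the minus strand (Cox6a1), chr9:79759879-79759998 on the minus strand (Cox7a2), chr7:30184024-30184143 on the plus strand (Cox7a1) and chr7:140900447-140900566 on the minus strand (Cox8b).
Sdha: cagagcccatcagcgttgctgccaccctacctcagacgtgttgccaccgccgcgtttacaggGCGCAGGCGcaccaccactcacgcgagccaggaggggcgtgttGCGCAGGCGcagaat
Cox6a1: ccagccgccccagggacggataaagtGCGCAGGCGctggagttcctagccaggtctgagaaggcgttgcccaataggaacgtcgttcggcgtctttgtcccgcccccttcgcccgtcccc
Cox7a2: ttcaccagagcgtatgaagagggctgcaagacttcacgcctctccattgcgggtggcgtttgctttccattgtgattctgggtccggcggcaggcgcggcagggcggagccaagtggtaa
Cox7a1: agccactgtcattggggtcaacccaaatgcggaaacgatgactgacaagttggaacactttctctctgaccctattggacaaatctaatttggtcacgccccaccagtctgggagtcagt
Cox8b: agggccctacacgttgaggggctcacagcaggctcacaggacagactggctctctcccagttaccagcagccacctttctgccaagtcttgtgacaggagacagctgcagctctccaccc

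The Sdha stretch holds the NRF1 motif in 2 places and that of Cox6a1 in 1, and the other 3 hold none. Cox6a1, with the motif, had 13.1, 12.8 and 16.96 normalized CPM in Homo KO, 14.9, 13.7 and 15.9 in Hete KO and 9.23, 12.5 and 17.7 in WT, and its groups overlapped. Ndufa5 also has an NRF1 match in its promoter window, whereas Uqcrb, Uqcrc2 and Cox6a2 were not among the 69. A match describes the letters of the window and not binding.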

How the data were processed

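RNA-seq of 9 subcutaneous adipose libraries was deposited by the authors as 1 transcript table per library, which per the file headers holds transcript length, effective length, estimated counts and TPM. Per the submitters' processing notes the genome was mm10; the sources used here name neither the quantifier and its settings nor the strandedness. Estimated counts and TPM as deposited were summed per gene with the GENCODE M21 annotation, which matched 111362 of 113193 transcripts; the unmatched ones, 0.581 to 1.06% of counts, were left out. Estimated counts were rounded, filtered with filterByExpr (17968 genes kept), TMM-scaled and tested in all 9 libraries together (6 residual degrees of freedom) with edgeR 4.0.16's quasi-likelihood test in R 4.3.3, two-sided, with Benjamini-Hochberg adjustment over all tested genes at 0.05. Sums of TPM carry no test. The fit was tested on simulated data.

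Alternatives were DESeq2 1.42.0, limma 3.58.1 on log2(TPM + 0.5) and log2(TPM + 0.1), other normalizations, an offset for transcript length, filters (none, or 1 CPM in 3 libraries), fits of 2 groups, a replicate block, each library left out, and libraries with muscle or liver transcripts left out. Copies were found with BLAST+ 2.17.0; adding the counts of copies at 99% identity or more, and restricting sums to protein-coding transcripts, were chosen after seeing the data.

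The members, lists and alternatives were chosen with earlier results of these data known. The genes named are all mitochondrial members, per complex and comparison the nuclear members with the smallest p in each direction, the tissue isoforms, and up to 3 genes per list and comparison; others were singled out after their values were seen. Figures were drawn with Python 3.11.15 and matplotlib 3.10.9.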

Additional observations from a re-analysis of the deposited data

How the results depend on the processing

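With 3 mice a group, calls across all genes moved widely. In Homo KO against WT the 0 genes called became 7 with only the 2 groups fitted, 633 by DESeq2, 1 without a filter, 2 without the libraries with liver transcripts and 41 without those with muscle transcripts. In Hete KO against WT the 75 genes called became 0 with 2 groups or limma on either pseudocount, 1610 by DESeq2, 1 with the offset for transcript length, 27 by library totals, 258 without a filter, 1 without the liver-transcript and 11 without the muscle-transcript libraries. Members called in Homo KO against WT were 5 by DESeq2, and in Hete KO against WT 10 by DESeq2 and 1 without a filter. The fits without liver-transcript or without muscle-transcript libraries hold 1 WT library, WT 1 or WT 3, which is assumed to vary like the other groups. DESeq2 called 2 genes between Homo KO and Hete KO.

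The labels do not say what the replicate numbers mean. Deviations from the group means correlated at -0.072 to 0.458 between same-numbered libraries of different groups and at -0.455 to 0.251 between different-numbered ones. With the replicate block edgeR called 248 genes and 1 member, Ndufa5, in Hete KO against WT. Leaving out each library in turn gave 0 to 153 genes in Homo KO against WT (153 without WT 1), and 0 to 958 genes and 0 to 3 members in Hete KO against WT. The 75 genes became 0 without Hete KO 3, Homo KO 1 or Homo KO 2, 1 without Hete KO 2 or WT 2, 2 without Homo KO 3 and 26 without WT 3, and were 431 without WT 1 and 958 without Hete KO 1.

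Without the libraries with liver transcripts the log2 ratios against WT were 0.13 (Homo KO) and 0.36 (Hete KO) for the mitochondrial sum and 0.024 and 0.19 for the ratio of sums; as a share of counts the nuclear sum in Hete KO was at 0.054. Of 1922 alternatives to 72 named log2 fold changes, 1815 kept direction and side of the threshold, 21 passed it and 86 changed sign. Without the liver-transcript libraries the sign changed in Homo KO against WT for mt-Atp6 (-0.24), mt-Co2 (-0.032), mt-Nd1 (-0.057), mt-Nd2 (-0.017), Sdhc (0.22) and Uqcrq (0.18), and in Hete KO against WT for Atp5d (0.21), Cyc1 (0.032), Sdhd (0.034) and mt-Co2 (-0.070). Without the muscle-transcript libraries it changed in Homo KO for Cox8a (-0.0031) and mt-Co2 (-0.23), and in Hete KO for mt-Co2 (-0.59). Once copies were added, all 13 mitochondrial genes were above 0 in Hete KO against WT, both without the liver-transcript and without the muscle-transcript libraries. Sdhc in Homo KO was 0.39 with the length offset, and 0.31 and 0.30 by limma. With copies added, Cycs in Homo KO against WT was 0.044, or 0.046 with the replicate block. In Homo KO against Hete KO, mt-Co2 was then -0.24 (-0.25 with the block, -0.24 without liver-transcript and -0.15 without muscle-transcript libraries) and mt-Co3 -0.29 (-0.29, -0.29 and -0.078). mt-Nd4l in that comparison was -0.0063 with 1 CPM in 3 libraries, -0.0047 with 2 groups, -0.14 with the length offset and -0.11 by limma on both pseudocounts.

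Over single libraries left out, copies added or not, values spanned 0 in Homo KO against WT for Cycs (-0.24 to 0.14), Sdhc (-0.19 to 0.052), mt-Atp6 (-0.042 to 0.75) and mt-Co2 (-0.13 to 0.97), in Hete KO against WT for Cyc1 (-0.40 to 0.0022) and mt-Co2 (-0.16 to 0.95), and in Homo KO against Hete KO for Atp5h (-0.011 to 0.12), Uqcrh (-0.044 to 0.35), mt-Atp8 (-0.21 to 0.068), mt-Co1 (-0.17 to 0.0029), mt-Co2 (-0.35 to 0.38), mt-Co3 (-0.43 to 0.16) and mt-Nd4l (-0.21 to 0.12). The cause was not tested.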
